A study of Rattus norvegicus with 9 samples.

Results

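The genes described here are 8 of the 24496 in the deposited liver count table, taken by symbol: Nfe2l2, which encodes the transcription factor NRF2, its antioxidant target genes Gclc, Gclm, Nqo1, Txnrd1, Srxn1 and Hmox1, and the metallothionein gene Mt1. Each had 1 row in the table, and 8 of 8 passed the filter on low counts. The samples were livers of 9 female Wistar rats aged 19 weeks, 1 messenger RNA library per animal. In 4 rats an osmotic pump released follicle-stimulating hormone (FSH), 6 µg per kg each day, and in 5 rats the pump held vehicle. Both groups shared everything else: western diet begun at 10 weeks of age, removal of the ovaries 6 weeks later, and degarelix, which blocks the pituitary receptor for gonadotropin-releasing hormone and so lowers the animals' own FSH. Both were then kept on limited food (12 days), allowed to eat freely (7 days) and fasted for 4 h before the liver was taken. There was no group with intact ovaries or without degarelix, so the comparison concerns added FSH in animals that lack ovarian hormones.

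NRF2 is held in the cytoplasm and marked for destruction by KEAP1. Electrophiles and oxidants modify KEAP1, after which NRF2 accumulates in the nucleus, pairs with a small MAF protein and binds antioxidant response elements. Control is therefore mostly at the level of the protein, and the RNA of its targets is the usual readout in liver. Metallothioneins are small cysteine-rich proteins that bind zinc and copper. Their genes respond to metals through the factor MTF1 at metal response elements, and to glucocorticoids, fasting and inflammation.

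The sequences of the start regions were searched for the core letters of these elements. RefSeq gives a window of 250 bases before and 50 bases after the start for 7 of the 8 genes on build GRCr8, with 2 windows for Txnrd1. No window was available for Hmox1, which was therefore not searched. The deposited counts were made on another build and are matched to these windows by symbol only. The core of the antioxidant response element was searched as TGACNNNGC on both strands, and 12.1% of all 33469 such windows in the rat genome hold it. Among the 7 genes with a window it lay in Nfe2l2, Gclm, Mt1 and 1 of the windows of Txnrd1, and the further metallothionein gene Mt2A held it too. The stretches around these matches are printed 5′ to 3′ on the strand of the gene, with the match in capitals; in Gclm and Txnrd1 the core reads on the opposite strand.
Gclm: tgcggtttctGCTTAGTCAttgtcttcca
Txnrd1: ctggatttttGCTTTGTCAttctgacacg
Nfe2l2: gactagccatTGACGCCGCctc
Mt1: gctgcgctcgTGACTGAGCgcgggctgga
Mt2A: aaagggggtgTGACTCAGCgcgggggcgt
These stretches are chr2:213031953-213031981 on the plus strand for Gclm, and on the minus strand chr7:22755964-22755992 for Txnrd1, chr3:81028950-81028971 for Nfe2l2, chr19:10833058-10833086 for Mt1 and chr19:10838927-10838955 for Mt2A. The match began 172 bases before the start of Gclm, 78 before that of Txnrd1, 101 before that of Mt1 and 237 before that of Mt2A, and it lay after the start of Nfe2l2. The windows of Gclc, Nqo1 and Srxn1 did not hold these letters, which says nothing of elements farther away or spelled otherwise. The Srxn1 window, for example, holds tgagtcagc, which has g where the search required C and so was not counted.

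Mt1 is shown in full because its window is dense in the core of the metal response element. That core was searched as TGCACNC and TGCGCNC on both strands, and the capitals mark the matches in chr19:10832926-10833225 (GRCr8, minus strand).
Mt1: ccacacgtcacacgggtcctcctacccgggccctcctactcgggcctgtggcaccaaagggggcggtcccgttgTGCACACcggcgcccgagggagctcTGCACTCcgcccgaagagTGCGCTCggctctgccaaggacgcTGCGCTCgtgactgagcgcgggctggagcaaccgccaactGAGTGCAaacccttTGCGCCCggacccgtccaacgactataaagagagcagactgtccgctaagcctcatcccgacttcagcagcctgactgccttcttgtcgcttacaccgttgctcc
The window held 6 matches, from 176 to 55 bases before the start, none of which overlapped the antioxidant element. At least 1 match is common, in 24.2% of all windows, while 6 or more were found in 13 windows, or 0.0388%. The limit of 6 was taken from Mt1 itself.

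Libraries held 23430807 to 27008941 counts with FSH and 19295580 to 28672439 with vehicle. In bulk tissue, fewer cells of a type and less RNA per cell cannot be told apart. Hepatocyte markers dominated (7 of 7 detected, summed to 163100 to 270273 CPM with FSH and 187639 to 233216 CPM with vehicle; CPM is counts scaled to library size, per 1000000), while the neutrophil markers stayed at or under 2.51 CPM in sum. On principal component 1 the FSH libraries scored −22.7 to −9.99 and the vehicle libraries 1.87 to 27.3, without overlap. FSH replicate 1 stood apart from the others on principal component 2 (score 33.8, next 6.49). Stellate cell and fibroblast markers summed to 131 to 165 CPM with FSH and 181 to 242 CPM with vehicle, without overlap. Most of that sum was the collagen gene Col3a1, at 101 to 129 CPM with FSH and 141 to 193 CPM with vehicle. Lrat, Rgs5, Des, Col1a1 and Dcn overlapped between the groups. Of the 6 markers 5 were lower with FSH, 2 of them at an unadjusted p under 0.05 in edgeR, and 1 was higher. Over all genes tested 5.14% were lower at that p, and 4.11% had no overlap. The groups overlapped for erythroid markers, which summed to 121 to 491 CPM with FSH and 76.0 to 157 CPM with vehicle. They also overlapped for sinusoidal endothelial markers, at 109 to 135 CPM with FSH and 87.6 to 114 CPM with vehicle. Of the erythroid markers tested 4 of 4 were higher with FSH, 1 of them at an unadjusted p under 0.05 in edgeR. Of the sinusoidal endothelial markers 4 of 4 were higher with FSH, 2 of them at that p. Over all genes tested 6.42% were higher at that p. Clec4g was at 21.4 to 26.8 CPM with FSH and 12.4 to 19.5 CPM with vehicle. Stab1 was separated by a small margin (19.98 and 19.97 CPM in the nearest libraries), and Stab2 and Lyve1 overlapped. The marker sums, and their part in the values below, were not tested.

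No member passed the threshold. With edgeR's quasi-likelihood test adjusted over all genes, 0 of 8 members had an adjusted p (FDR) under 0.05, where 0.0335% of the 11924 genes tested did. DESeq2 also called 0 of 8, against 1.54% of all genes. At an unadjusted p under 0.05 in edgeR there was 1 of 8, Gclc, against 11.6% of all genes. In 0 of 8 did every FSH library lie outside the range of the vehicle libraries, as it did in 4.11% of all genes. Values were higher with FSH in 6 members and lower in 2, where 50.5% of all genes were higher and 49.5% lower. The median log2 fold change of the members was 0.09, beside 0.0019 over all genes.

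**Figure D1:**
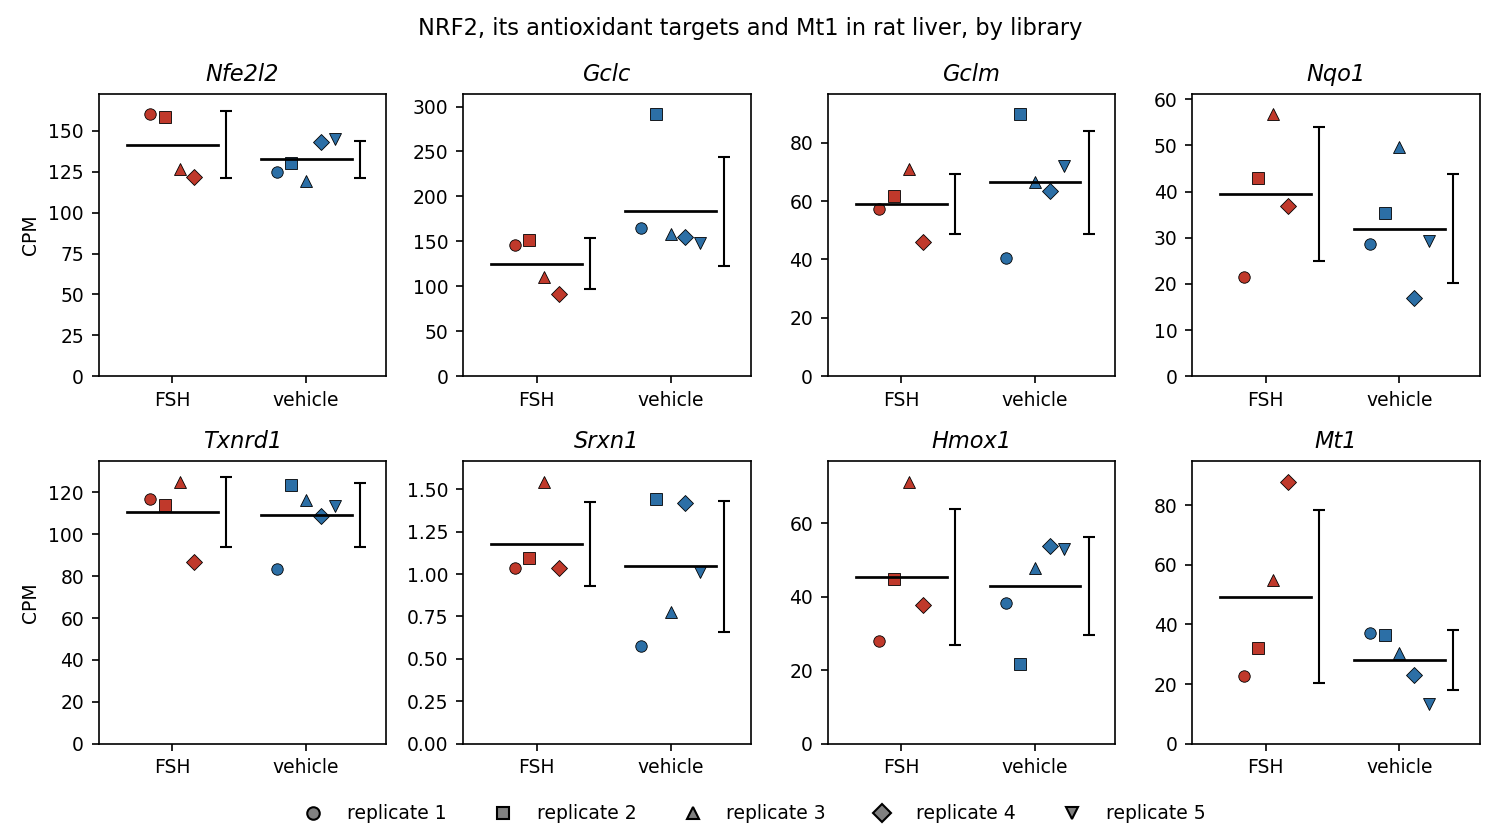
CPM (vertical axes from 0) of the 8 members in each library, with FSH on the left and vehicle on the right of each panel; horizontal lines are group means, error bars are SD (n = 4 and n = 5), and marker shapes give the replicate number. Groups overlap in each panel, Gclc has 1 vehicle library at 291 CPM, and Mt1 is widest in the FSH group, from 22.6 to 87.7 CPM.

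Nfe2l2 (ENSRNOG00000001548) stood at 160.1, 159, 127 and 122 CPM in FSH replicates 1 to 4, and at 125, 130.3, 119.5, 143 and 145 CPM in vehicle replicates 1 to 5. Replicates 1 and 2 of the FSH group were above every vehicle library and the other 2 within their range. The mean was 142 ± 20.5 CPM with FSH (SD, n = 4) and 133 ± 11.3 CPM with vehicle (n = 5). The difference on the log2 scale was 0.09 (SE 0.11, edgeR adjusted p = 0.78), with a 95% interval from −0.14 to 0.33, or 0.907-fold to 1.26-fold. On leaving out 1 animal at a time it lay between 0.031 and 0.16, with the same sign in all 9 fits. Of the 8 genes it varied least between animals of a group, with a within-group SD of 0.17 on the log2 CPM scale, against a median of 0.20 over all genes.

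Gclc and Gclm encode the catalytic and modifier subunits of glutamate-cysteine ligase, the rate-limiting enzyme of glutathione synthesis. Gclc (ENSRNOG00000006302) was at 146, 151, 111 and 91.9 CPM in FSH replicates 1 to 4, and at 165, 291, 158, 155 and 148 CPM in vehicle replicates 1 to 5. In the FSH group 3 of 4 libraries lay below every vehicle library, and replicate 2 lay inside their range by a small margin. Means were 125 ± 28.5 CPM with FSH and 183 ± 60.7 CPM with vehicle. On the log2 scale this was a difference of −0.55 (SE 0.23, edgeR adjusted p = 0.393, unadjusted p = 0.0331), with a 95% interval from −1.05 to −0.05. Without vehicle replicate 2 the value was −0.33 (unadjusted p in edgeR = 0.0576), and the unadjusted p in edgeR was also above 0.05 without FSH replicate 3 (0.0784) or FSH replicate 4 (0.0968). The sign held in the 9 fits that each left out 1 animal.

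Gclm (ENSRNOG00000013409) was at 57.3, 61.9, 70.8 and 45.9 CPM in FSH replicates 1 to 4 and at 40.4, 89.7, 66.4, 63.5 and 72.1 CPM in vehicle replicates 1 to 5. All 4 FSH libraries lay within the vehicle range. Its difference on the log2 scale was −0.17 (SE 0.20, edgeR adjusted p = 0.791; 95% interval −0.61 to 0.27). It was −0.043 without vehicle replicate 2, −0.069 without FSH replicate 4, −0.28 without FSH replicate 3 and −0.31 without vehicle replicate 1. Vehicle replicate 2 was the highest library for both subunits, and FSH replicate 4 the lowest FSH library for both. The ratio of Gclc to Gclm within a library, as a difference of log2 CPM, averaged 1.07 ± 0.32 with FSH and 1.46 ± 0.40 with vehicle. That difference of −0.39 between group means did not pass (exact permutation test, 2-sided, p = 0.214, adjusted p = 0.294 over 2 ratios). The smallest p that the 126 splits of this test allow is 0.0159.

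Txnrd1 and Srxn1 serve the thioredoxin arm: thioredoxin reductase 1 restores oxidised thioredoxin with NADPH, and sulfiredoxin rescues peroxiredoxins that have been over-oxidised. Txnrd1 (ENSRNOG00000009088) was at 117, 114, 125 and 86.8 CPM in FSH replicates 1 to 4 and at 83.5, 124, 116, 109 and 114 CPM in vehicle replicates 1 to 5. With the exception of the lowest library of each group, all lay between 109 and 125 CPM. Its log2 difference of 0.02 (SE 0.13, edgeR adjusted p = 0.97) had a 95% interval from −0.27 to 0.31, or 0.828-fold to 1.24-fold. Its sign turned without FSH replicate 1 (−0.0068), FSH replicate 3 (−0.047) or vehicle replicate 1 (−0.062). Srxn1 (ENSRNOG00000031167) was counted at 26, 27, 40 and 24 reads in FSH replicates 1 to 4 and at 11, 40, 22, 36 and 19 reads in vehicle replicates 1 to 5. At this depth the groups averaged 1.18 ± 0.25 CPM with FSH and 1.04 ± 0.38 CPM with vehicle, and the interval of the log2 fold change was wide (0.16, SE 0.28, edgeR adjusted p = 0.871; 95% interval −0.46 to 0.78). Without FSH replicate 3 its value was −0.0052.

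Nqo1 encodes a quinone reductase that is widely used as a marker of NRF2 activity. Nqo1 (ENSRNOG00000012772) was at 21.5, 42.9, 56.7 and 37.0 CPM in FSH replicates 1 to 4 and at 28.7, 35.4, 49.6, 17.0 and 29.3 CPM in vehicle replicates 1 to 5. The highest library was 2.64 times the lowest with FSH and 2.92 times with vehicle, and the within-group SD was 0.57 on the log2 CPM scale. Means were 39.5 ± 14.6 CPM with FSH and 32.0 ± 11.9 CPM with vehicle, 0.30 apart on the log2 scale (SE 0.31, edgeR adjusted p = 0.757; 95% interval −0.38 to 0.99). That value depended on single animals: it was 0.072 without FSH replicate 3, 0.14 without vehicle replicate 4, 0.51 without FSH replicate 1 and 0.52 without vehicle replicate 3.

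Hmox1 encodes haem oxygenase 1, which splits haem into biliverdin, iron and carbon monoxide and is abundant in macrophages that clear red cells. Hmox1 (ENSRNOG00000014117) was at 27.9, 44.9, 71.3 and 37.8 CPM in FSH replicates 1 to 4 and at 38.3, 21.7, 47.9, 53.8 and 53.0 CPM in vehicle replicates 1 to 5. Between the groups the log2 difference was 0.08 (SE 0.30, edgeR adjusted p = 0.94; 95% interval −0.58 to 0.75), and its sign turned without FSH replicate 3 (−0.22) or vehicle replicate 2 (−0.090). Markers of Kupffer cells and macrophages (9 of 9 detected) summed to 474, 540.2, 724 and 532 CPM in FSH replicates 1 to 4 and to 660.3, 292, 589.6, 575 and 778 CPM in vehicle replicates 1 to 5. The lowest and highest libraries of the FSH group were the same for both measures, and vehicle replicate 2 was lowest for both in its group. The highest vehicle library was replicate 4 for Hmox1 and replicate 5 for the macrophage markers. Erythroid markers summed to 491 CPM in FSH replicate 3, the highest library for Hmox1. Their next highest sum was 252 CPM in FSH replicate 1, the lowest FSH library for Hmox1. The part of either cell type in the level of Hmox1 was not tested.

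**Figure D2:**
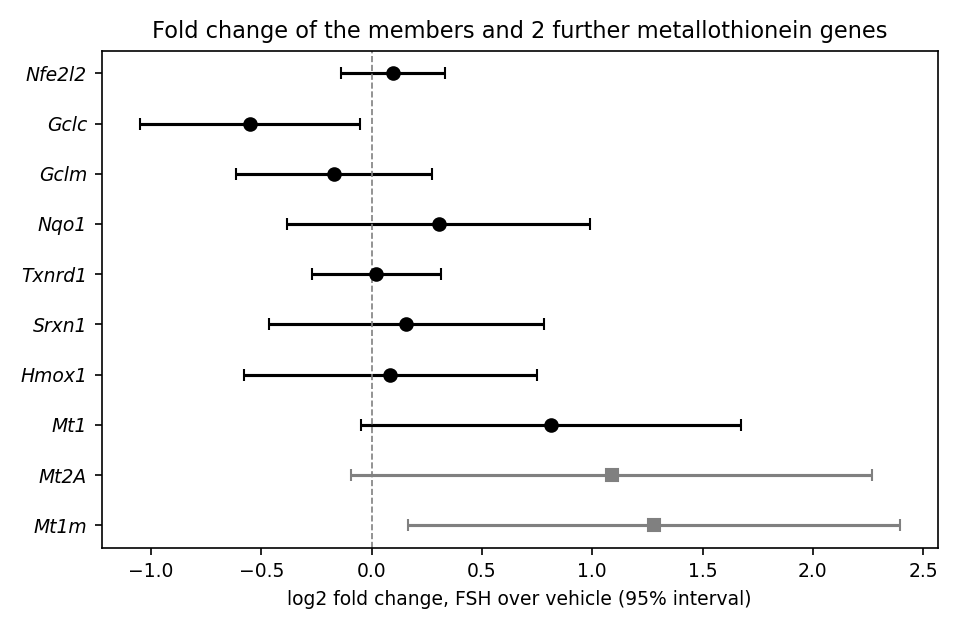
Log2 fold change of FSH over vehicle (horizontal axis) with its 95% interval from the edgeR fit, for the 8 members (black circles) and 2 further metallothionein genes (grey squares); the dashed line marks no difference. The intervals of Gclc (−1.05 to −0.05) and Mt1m (0.17 to 2.39) lie on 1 side of 0, though neither passed after adjustment, and those of Nfe2l2 and Txnrd1 are the narrowest.

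Mt1 (ENSRNOG00000038047) had the largest fold change of the 8 genes and the widest spread. Its identifier was tied to the RefSeq gene by symbol only, so whether the counted locus is the functional gene or a near copy was not checked. It was at 22.6, 32.2, 54.8 and 87.7 CPM in FSH replicates 1 to 4, and at 37.1, 36.3, 30.5, 22.9 and 13.4 CPM in vehicle replicates 1 to 5. FSH replicates 3 and 4 lay above every vehicle library, while replicates 1 and 2 lay within their range. Means were 49.3 ± 28.9 CPM with FSH and 28.04 ± 9.96 CPM with vehicle. Their log2 difference was 0.81 (SE 0.39, edgeR adjusted p = 0.46, unadjusted p = 0.0624; 95% interval −0.05 to 1.67). It was 0.38 without FSH replicate 4 and 1.05 without FSH replicate 1, the library that stands apart. The within-group SD of 0.73 on the log2 CPM scale placed Mt1 above 96.7% of all genes tested, and Nqo1 and Hmox1, at 0.57 and 0.55, above 93.7% and 93.2%.

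Mt2A, the neighbour of Mt1 in the genome and the other metallothionein of liver, gave values of the same kind. It was at 14.5, 43.5, 75.5 and 82.4 CPM in FSH replicates 1 to 4 and at 31.8, 30.5, 41.7, 15.4 and 7.07 CPM in vehicle replicates 1 to 5. In the FSH group 3 of 4 libraries were above every vehicle library and replicate 1 was within their range. The log2 difference was 1.09 (SE 0.53, edgeR adjusted p = 0.473; 95% interval −0.09 to 2.27). Mt1m, named after its values were seen, is listed by RefSeq as a pseudogene and had 38.8 ± 19.6 CPM with FSH and 15.9 ± 8.69 CPM with vehicle (1.28 on the log2 scale, SE 0.50, edgeR adjusted p = 0.384). Metallothionein genes and pseudogenes are near copies of each other, and reads may have been split among them. With the counts of the 3 genes summed into 1 row, the log2 difference between groups was 1.04 (SE 0.46, edgeR adjusted p = 0.422). The ratio of Mt1 to Mt2A within a library, as a difference of log2 CPM, averaged −0.04 ± 0.52 with FSH and 0.30 ± 0.51 with vehicle, which did not pass (exact permutation test, 2-sided, p = 0.294, adjusted p = 0.294 over 2 ratios). The 2 brain and epithelial metallothioneins, Mt3 and Mt4, were listed at 0 in every library.

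**Figure D3:**
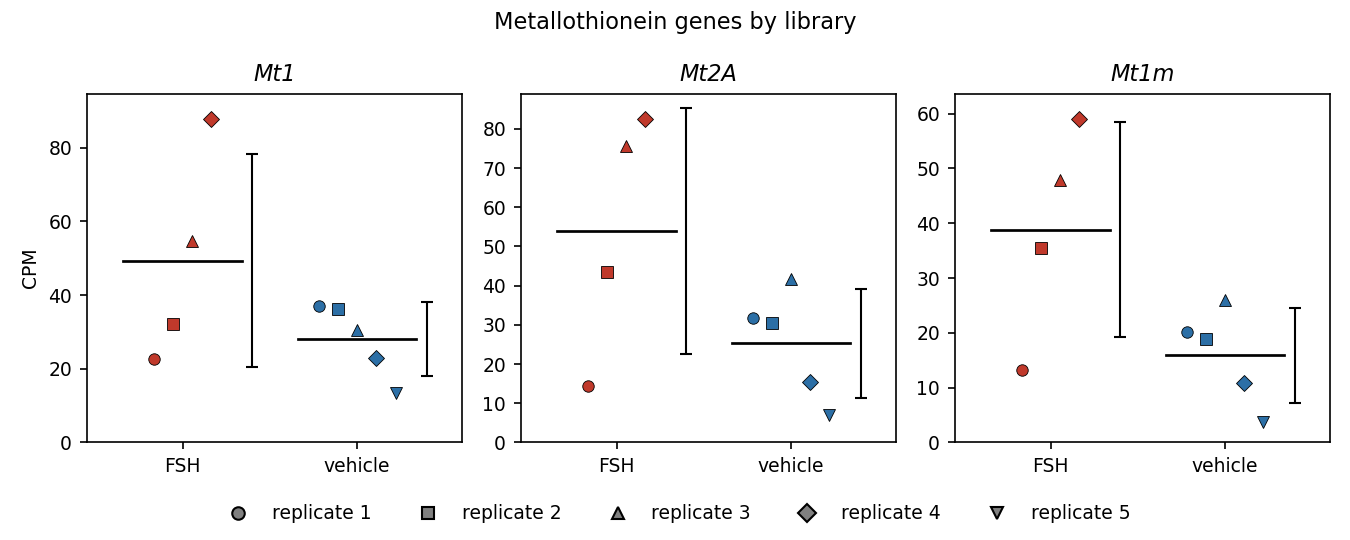
CPM (vertical axes from 0) of Mt1, Mt2A and Mt1m in each library, with FSH left of vehicle; lines are group means, error bars are SD, and marker shapes give the replicate number. In each panel FSH replicates 3 and 4 are the highest libraries and vehicle replicate 5 is the lowest, at 13.4 CPM for Mt1 and 7.07 CPM for Mt2A.

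Whether the 8 genes varied together between animals was examined for all 28 pairs over the 9 libraries, on log2 CPM. No pair passed after adjustment over the 28 (exact permutation of pairings, 0 by Pearson and 0 by Spearman; 2 pairs had an unadjusted p under 0.05 by Pearson). The closest was Gclm with Txnrd1, with a Pearson r of 0.90 (exact permutation p = 0.0022, adjusted p = 0.0615) and a Spearman rho of 0.65 (exact permutation p = 0.0666, adjusted p = 0.904). Without the 2 libraries farthest from the median of Gclm, r was 0.85, and after subtraction of group means it was 0.93. The libraries left out there were vehicle replicates 1 and 2. FSH replicate 4, low for both genes (45.9 CPM of Gclm and 86.8 CPM of Txnrd1), stayed in. How far r rests on FSH replicate 4 and vehicle replicate 1 together was therefore not tested. Both genes hold the core of the antioxidant element in a start window, as printed above, as do Nfe2l2 and Mt1. Any part of the element in these correlations was not tested. Gclc and Gclm, the 2 subunits of 1 enzyme, had r = 0.52 (exact permutation p = 0.145, adjusted p = 0.649; rho 0.22, exact permutation p = 0.581, adjusted p = 0.904), which became −0.52 without the 2 libraries farthest from the median of Gclc. That relation rests on those libraries.

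For Nfe2l2 and Mt1 the sign was negative, with r = −0.61 (exact permutation p = 0.0834, adjusted p = 0.542) and rho = −0.62 (exact permutation p = 0.0857, adjusted p = 0.904). Without the 2 libraries farthest from the median of Nfe2l2, r was −0.76. After subtraction of group means it was −0.89, and this pair and Gclm with Txnrd1 then passed (adjusted p = 0.0289 and 0.0071 by exact permutation, which takes the remaining deviations as exchangeable). Among the FSH animals, replicates 1 and 2 were highest for Nfe2l2 and lowest for Mt1. Nfe2l2 and Nqo1 had r = −0.48 (exact permutation p = 0.187, adjusted p = 0.656; rho −0.45, exact permutation p = 0.23, adjusted p = 0.904; r = −0.70 without the 2 farthest libraries).

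**Figure D4:**
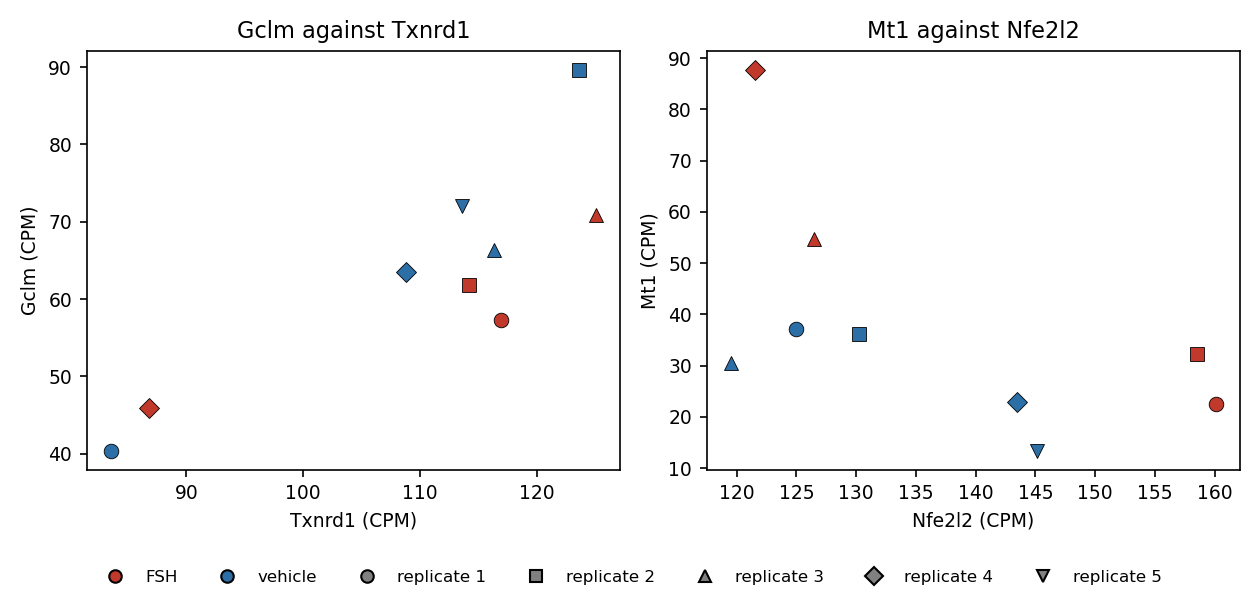
Left, Gclm against Txnrd1, and right, Mt1 against Nfe2l2, both in CPM, 1 point per library, FSH in red and vehicle in blue, with marker shapes for the replicate number; axes do not start at 0. On the left 1 library of each group lies apart at the lower left (86.8 and 83.5 CPM of Txnrd1), and on the right FSH replicate 4 is at 87.7 CPM of Mt1.

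Gene symbols that are dates, and placeholder names that begin with AABR, AC and a digit, RGD or LOC, were set aside. Among the other genes tested, those most like each member in level across the 9 libraries were looked up. They are a description without a test, since the best of so many is high by choice. For Mt1 they were Tmem8b (r = 0.95) and Mt2A (r = 0.93), with which Mt1 may share reads. For Hmox1 they were Syk, a kinase of immune receptors (r = 0.97), and Arhgap22 (r = 0.97). For Nfe2l2 they were Mpp3 and the epithelial cadherin Cdh1 (r = 0.97 and 0.96), and for Gclc the ubiquitin ligase gene Rnf26 and the mitochondrial import receptor gene Tomm22 (r = 0.96 and 0.95). Gclm was followed by Tubgcp3 and the protease gene Ctsk (0.95 and 0.94), Txnrd1 by Snx27 and Ccdc93 (0.95 and 0.94), Srxn1 by Pi4kb and Foxred2 (0.95 and 0.94), and Nqo1 by Cwf19l1 and Glb1l (0.94 and 0.93). No antioxidant gene was among these 16 apart from Mt2A.

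Around the 8 genes, 9 lists of 76 further genes were examined, of which 69 were tested. None passed in edgeR over all genes, where 0.0335% did, and 2 of 69 passed in DESeq2 (Tfrc and Gsta2), where 1.54% of all genes did. At an unadjusted p under 0.05 in edgeR, 3 of 69 were higher with FSH and 7 lower, where 6.42% and 5.14% of all genes were. Whatever their p, 25 of the 69 were higher and 44 lower, with a median log2 fold change of −0.04.

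The list of NRF2 partners and control genes had a median log2 fold change of 0.15, with 6 of 8 higher. It is not a list of partners alone. The 6 include Bach1, with the largest value (0.47, SE 0.28, edgeR adjusted p = 0.558), and Cul3 (0.06, SE 0.13). The 2 lower genes were Keap1 and Sqstm1. Mafg, a small MAF partner, averaged 17.1 CPM with FSH and 14.5 CPM in vehicle livers (0.24, SE 0.10, edgeR adjusted p = 0.393), and Nfe2l1, the NRF2 relative that controls proteasome genes, had 0.16 (SE 0.08, edgeR adjusted p = 0.492; 0.11 without FSH replicate 1). Keap1, the repressor of NRF2, was near 0 on this scale (−0.07, SE 0.07, edgeR adjusted p = 0.735). In glutathione synthesis and use 3 of 9 tested genes were higher (median −0.09): Glrx, a glutaredoxin, had −0.27 (SE 0.09, edgeR adjusted p = 0.344) and Oplah, which recycles 5-oxoproline, 0.38 (SE 0.15, edgeR adjusted p = 0.387; 0.19 without FSH replicate 3). The cystine transporter gene Slc7a11 was too low to test.

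Of the thioredoxins and peroxiredoxins 4 of 10 were higher, with a median of −0.03. Values lay between −0.07 and 0.07 apart from Txnip, the inhibitor of thioredoxin, at 0.20 (SE 0.31); Prdx1 had 0.07 (SE 0.07) and Txn2 −0.07 (SE 0.09). Genes of superoxide and peroxide removal had values below 0 in 4 of 4 (median −0.04), with catalase, Cat, at −0.23 (SE 0.17; −0.056 without vehicle replicate 5) and the extracellular dismutase Sod3 at −0.07 (SE 0.14), whose sign turned without FSH replicate 3 (0.036). In the supply of NADPH, 3 of 4 tested genes were lower and the median was −0.27, or −0.13 without vehicle replicate 1. Me1, malic enzyme, was at 36.7, 34.8, 40.03 and 25.6 CPM in FSH replicates 1 to 4 and at 129, 67.9, 25.4, 52.5 and 50.1 CPM in vehicle replicates 1 to 5. Its log2 difference of −0.92 (SE 0.38, edgeR adjusted p = 0.393) was −0.51 without vehicle replicate 1. Taldo1, transaldolase of the pentose phosphate pathway, had −0.21 (SE 0.11, edgeR adjusted p = 0.509), or −0.11 without the same animal. Me1 is also a target of lipogenic factors.

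Among haem and iron genes 5 of 7 were lower (median −0.07). Tfrc, the transferrin receptor, was at 31.6, 34.4, 35.6 and 35.5 CPM in FSH replicates 1 to 4 and at 41.5, 59.4, 60.9, 45.3 and 48.9 CPM in vehicle replicates 1 to 5. The groups did not overlap. Its log2 fold change of −0.58 (SE 0.12) had an edgeR adjusted p of 0.175, which lay between 0.124 and 0.325 in the 9 fits that left out 1 animal, and a DESeq2 adjusted p of 0.0027. Hmox2, the constitutive haem oxygenase, had 0.21 (SE 0.14; 0.095 without FSH replicate 3). Of the detoxifying NRF2 targets 9 of 11 tested were lower, with a median of −0.21 that was −0.0031 without vehicle replicate 2. Gsta2, a glutathione transferase, was at 3.77, 3.57, 4.71 and 3.76 CPM in FSH replicates 1 to 4 and at 7.28, 17.3, 8.94, 5.05 and 7.97 CPM in vehicle replicates 1 to 5, again without overlap (−1.24, SE 0.31, edgeR adjusted p = 0.219, DESeq2 adjusted p = 0.0090). It has close relatives that may share its reads, and vehicle replicate 2, the highest library for Gclc and Gclm, was also the highest for Gsta2. Ephx1, the microsomal epoxide hydrolase, had −0.45 (SE 0.17, edgeR adjusted p = 0.358).

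In the list of metallothioneins and zinc, 4 of 7 tested genes were higher (median 0.06). The zinc and iron importer gene Slc39a14 was at 352, 435, 352 and 337 CPM in FSH replicates 1 to 4 and at 269, 286, 342, 309 and 304 CPM in vehicle replicates 1 to 5, so that 3 of 4 FSH libraries were above every vehicle library (0.29, SE 0.10, edgeR adjusted p = 0.34). Slc39a10, another zinc importer, had −0.28 (SE 0.12, edgeR adjusted p = 0.409), Slc30a1, a zinc exporter controlled by MTF1, 0.21 (SE 0.14), and Mtf1 itself 0.06 (SE 0.12). Of the genes that glucocorticoids induce, 3 of 9 were higher, with a median of −0.15. Tat, tyrosine aminotransferase, was at 1296, 628, 735 and 1178 CPM in FSH replicates 1 to 4 and at 1628, 3116, 1448, 1304 and 1343 CPM in vehicle replicates 1 to 5 (−0.88, SE 0.31, edgeR adjusted p = 0.34), without overlap though the nearest libraries, at 1296 and 1304 CPM, almost met. Without vehicle replicate 2 its value was −0.58. Fkbp5, a chaperone of the glucocorticoid receptor, had 0.41 (SE 0.19, edgeR adjusted p = 0.448). Groups did not overlap in 3 of the 69 genes, Tfrc, Gsta2 and Tat, or 4.35%, against 4.11% of all genes.

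**Figure D5:**
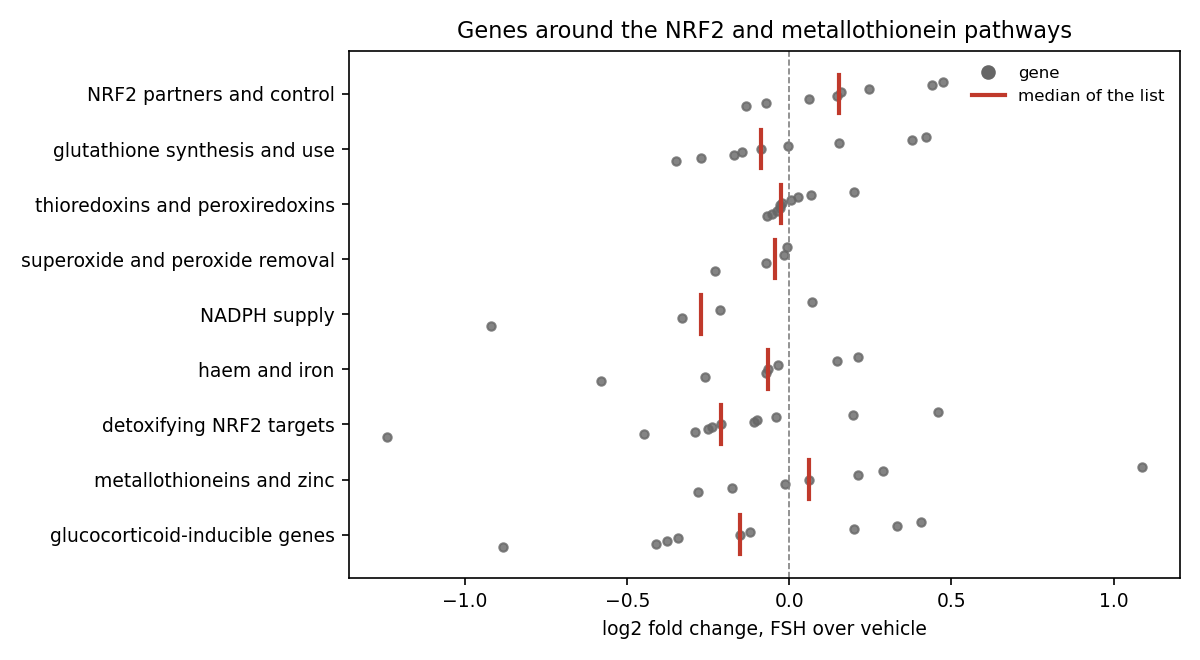
Log2 fold change of FSH over vehicle (horizontal axis) of the 69 tested genes in 9 lists around the NRF2 and metallothionein pathways; points are genes and red bars are list medians. Medians lie between −0.27 (NADPH supply) and 0.15 (NRF2 partners and control), and the points farthest from 0 are Gsta2 at −1.24 and Mt2A at 1.09.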

How the data were processed

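The authors deposited whole-number read counts per gene, with symbols and Ensembl identifiers, not normalised, for 9 liver libraries. The tools STAR, edgeR and DESeq2 and the rat build rn6 appear in the submitters' processing notes, with neither versions nor roles. Annotation and strand setting: not given in the sources used here. Count columns were matched to animals by their labels. FSH and vehicle livers were compared by edgeR's quasi-likelihood test (version 4.0.16, in R 4.3.3), 2-sided, on TMM-scaled counts of the 11924 genes left by filterByExpr, with p-values adjusted over all of them by the Benjamini-Hochberg method. SEs come from the fold change and its F statistic, and 95% intervals from the SEs. A single read was worth 0.0353 to 0.0532 CPM.

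The members, the lists and the rule for named genes were chosen with earlier results of these data known. The rule took all members and, in each list, up to 4 genes past the threshold, otherwise the 2 of lowest p. For each member it also took the 2 genes with the highest correlation, leaving out symbols that are dates or placeholder names. Mt1m, the summed metallothionein counts and the count of promoters with at least 6 matches were added after seeing the data. The list on NADPH supply is given without 1 of its genes, which is not reported here.

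Exact permutation tests were used for ratios and correlations. Counts of the same 2 groups were simulated (11843 genes tested), with changes of 0.5, 1 and 2 on the log2 scale in 67, 67 and 66 genes. These were drawn at random from all genes. The changes were called in the right direction for 16.4%, 80.6% and 97.0% of them. Such shares are averages over genes. They were not computed for genes as variable as Mt1, Nqo1 and Hmox1, and so do not give the power for these. Alternatives were DESeq2 1.42.0, limma-voom (limma 3.58.1) with quality weights, other scalings and filters, a replicate block and leaving out each animal. Promoter sequences are RefSeq's on GRCr8, matched by symbol.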

Additional observations from a re-analysis of the deposited data

Results flagged for a closer look

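Each group's extreme animals were set against the range of that group in 60 sets of values (a gene or ratio in a group). In 5 of them an animal was far from the rest, where chance gives about 1 in 20, or 3. In vehicle replicate 2, Gclc was at 291 CPM (next 165) and Tat at 3116 CPM (next 1628). In vehicle replicate 1, Taldo1 was at 114 CPM (next 87.9). In FSH replicate 3, Srxn1 was at 1.54 CPM (next 1.10), a difference that rests on 40 reads in that library and 24 to 27 in the others of its group. In FSH replicate 2, Slc39a14 was at 435 CPM (next 352).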

How the results depend on the processing

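The 8 members stayed short of the threshold in all 16 alternative fits, and at an FDR of 0.10 also 0 passed. Adjusted p for Gclc was at its smallest with DESeq2 (0.258). At an unadjusted p of 0.05 the count was 1, and 0 to 2 on leaving out 1 animal (0 without FSH replicate 3, FSH replicate 4 or vehicle replicate 2; 2, with Mt1, without FSH replicate 1 or 2). Over all genes, the count of 4 was 184 with DESeq2, 12 at an FDR of 0.10 and 0 to 4 on leaving out 1 animal; of the further genes 2 passed with DESeq2 (Tfrc −0.59, Gsta2 −1.24). The cause was not tested. On leaving out 1 animal, fold changes spanned 0 in Txnrd1 (−0.062 to 0.12), Srxn1 (−0.0052 to 0.30), Hmox1 (−0.22 to 0.26) and Sod3 (−0.16 to 0.036). No pair of members passed in the main correlations, and 2 did after subtraction of group means. No pairing of animals by replicate number was seen. Deviations of same-numbered animals correlated between −0.04 and 0.04, and 0 of 8 animals correlated best with their own number. These values cannot exclude a pairing, and the labels do not say how the numbers were given. A replicate block gave 5 calls over all genes, 0 members, −0.60 for Gclc and 0.47 for Mt1. The low counts of Srxn1 limit its precision.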
